A study of Mus musculus with 33 samples.

Results

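Fibroblast growth factor (FGF) receptors are receptor tyrosine kinases that bind FGF ligands together with heparan sulfate and signal through the adaptor FRS2, the Ras-MAPK chain and phospholipase C gamma. FGFR1 is known for its part in keeping neural stem cells and in early neural development, FGFR2 for oligodendrocytes and myelin growth, and FGFR3 as a receptor that marks astrocytes and radial glia. In the adult dentate gyrus, the neurogenic zone of the hippocampus, FGF2 is a classical mitogen of neural stem cells. The genes Fgfr1, Fgfr2 and Fgfr3 were taken by symbol from the count tables of single sorted cells, and are 3 of the 18854 gene symbols in those tables. In the mm10 mouse genome (GRCm38), RefSeq places Fgfr1 at chr8:25518759-25575718, Fgfr2 at chr7:130162451-130266808 and Fgfr3 at chr5:33721724-33737068. The exons of no other GENCODE gene overlapped the last 1000 bases of any of the 3 genes, from which these libraries read. Over all wells the deposited tables held 2182 Fgfr1, 1062 Fgfr2 and 2140 Fgfr3 transcripts.

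The study sequenced single cells of the mouse hippocampal niche, the cells that surround and include the adult neural stem cells, by SORT-seq, a plate version of CEL-Seq2 that counts transcript 3′ ends with unique molecular identifiers (UMIs). A Nestin-GFP library (1) held GFP+ hippocampal cells of NestinGFP mice, in which regulatory sequence of the neural stem cell gene Nestin drives GFP. An old library (1) held niche cells of C57BL/6 mice older than 12 months. The 31 niche libraries came from wild-type C57BL/6 mice in 5 experiments, and neurons had been depleted from the hippocampus before live cells negative for GluR1 and Cd24 were sorted. The sources used here give neither the ages of the niche mice nor the number of mice behind each experiment. No group received a drug or carried a deletion. Cd24 is a surface antigen of young neurons, so the sort may remove part of the neuroblasts, which was not measured. The experiment was the replicate, so p-values rest on how far the differences between classes vary from experiment to experiment.

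After filtering, 1730 cells remained, 1278 of them niche cells. The cells of a niche experiment held between 450994 and 2565578 transcripts. No 2 wells had identical counts. A random draw put each UMI of a cell into 1 of 2 sets. Clusters were built from the first set without FGF genes, and all levels below come from the second. Levels are in CPM, a gene's summed count scaled to the summed count of all genes, taken over all cells of a class in an experiment, for classes with at least 5 cells there. Because each UMI stands for 1 transcript end, CPM does not depend on gene length, but how well each gene's end was captured is unknown. Intervals for single libraries or pooled cells are 95% exact Poisson or binomial intervals and cover counting error only. Ratios of pooled counts take every experiment of each class, also those that the other class lacks, and do not pair them.

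Clusters were named from marker lists. The 161 mature oligodendrocyte-like cells had Mal and Mbp among their leading genes, and the 356 oligodendrocyte precursor-like cells had Pdgfra and Cspg4. Of the precursor-like clusters, L4 (161 cells) was headed by Pdgfra and Cspg4. L0 (195 cells) was headed by Camk2a, a gene of the mature neuron marker list, with Pdgfra and Cspg4 among its 10 leading genes. The leading genes of the 251 neuroblast-like cells included Neurod1, Calb2, Eomes and Igfbpl1, and those of the 316 astrocyte-like cells Gja1, Aldoc and Slc4a4. Neuroblast-like cells of experiment 2 came from clusters L6 (57 cells) and L8 (36), and those of experiment 4 from L7 (58) and L8 (10). Cluster L7, 77 cells in all, was named from its marker score but held 1 neuroblast marker, Igfbpl1, among its 10 leading genes. The haemoglobin gene Beta-s headed L8. Cd24a, the gene of the antigen sorted against, was among the 10 leading genes of L6 and of L7. Oligodendrocyte precursor-like cells were mostly of cluster L0 in experiment 1 (128 cells) and of L4 in experiment 2 (75). One cluster of 52 cells, S3, had the highest score for neural stem cell markers within the astrocyte lineage. Its summed stem cell markers came to 6346 ± 2004 CPM, against 4361 ± 1052 CPM in astrocyte-like cells (SD, n = 4 and 5 experiments). Most of that difference was Hopx, a gene of quiescent stem cells, with 3300.1 ± 1159 CPM in S3 and 1640 ± 807 CPM in astrocyte-like cells (SD, n = 4 and 5). Gfap (391 CPM in S3, 717 CPM in astrocyte-like cells), Vim (259.5 and 304 CPM) and Id4 (596 and 676 CPM) of the same list had lower means in S3. However, the 10 leading genes of S3 against all other cells held 1 stem cell marker, Hopx, and 3 astrocyte markers, Mlc1, Slc1a3 and Mfge8. The cluster is therefore called by its number and not by a cell type. Against astrocyte-like cells its leading genes were the immediate early genes Fos, Egr1 and Junb, which rise within minutes of a stimulus.

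Fgfr1 was highest in astrocyte-like cells and S3, intermediate in neuroblast-like cells, low in oligodendrocyte precursor-like cells and close to absent from mature oligodendrocyte-like cells. Fgfr2 had the opposite place in the oligodendrocyte lineage: it was highest in mature oligodendrocyte-like cells and near the detection limit in their precursors. Fgfr3 was the most abundant of the 3 in astrocyte-like cells and was low in all cells of the oligodendrocyte and neuronal lineages. The mature oligodendrocyte-like cells thus differed from astrocyte-like cells by carrying almost only Fgfr2.

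Fgfr1 in mature oligodendrocyte-like cells stood at 7.81, 20.7 and 0 CPM in experiments 1, 3 and 5, from 2 counts in all. Oligodendrocyte precursor-like cells had 109.5, 88.1, 174 and 70.6 CPM in experiments 1, 2, 3 and 5. These groups did not overlap. Neuroblast-like cells had 299.7, 321, 402, 237 and 0 CPM in experiments 1 to 5. The 0 came from 6 cells, in which 3 counts would have been 453 CPM, and the other experiments lay within a narrow range. Cluster S3 had 769, 535, 386 and 589.6 CPM in experiments 1, 2, 3 and 5. Astrocyte-like cells had 818, 479.9, 528, 469 and 722 CPM in experiments 1 to 5. The ranges of S3 and astrocyte-like cells overlapped almost fully. From low to high, Fgfr1 averaged 9.49 ± 10.4 CPM in mature oligodendrocyte-like cells (n = 3), 111 ± 45.2 in oligodendrocyte precursor-like cells (n = 4), 252 ± 153 in neuroblast-like cells (n = 5), 570.1 ± 158 in S3 (n = 4) and 604 ± 158 in astrocyte-like cells (SD, n = 5). Of the neighbours in this order, only mature oligodendrocyte-like and oligodendrocyte precursor-like cells had ranges that did not overlap.

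Fgfr2 in mature oligodendrocyte-like cells reached 766, 599 and 331 CPM in experiments 1, 3 and 5. Oligodendrocyte precursor-like cells had 6.64, 2.59, 21.8 and 47.1 CPM in experiments 1, 2, 3 and 5, each from 1 or 2 counts. The lowest mature value was above the highest precursor value. In neuroblast-like cells Fgfr2 gave 3 counts in all and 0, 2.5, 0, 4.31 and 0 CPM in experiments 1 to 5. Cluster S3 had 96.2, 53.5, 193 and 131 CPM in experiments 1, 2, 3 and 5, and astrocyte-like cells had 250, 144, 219, 219.8 and 336 CPM in experiments 1 to 5. Each S3 value was below the astrocyte-like value of its experiment, although the ranges overlapped. The order from low to high was neuroblast-like cells with 1.36 ± 1.97 CPM, oligodendrocyte precursor-like cells with 19.5 ± 20.1, S3 with 118 ± 59, astrocyte-like cells with 234 ± 69.3 and mature oligodendrocyte-like cells with 565 ± 219 CPM (SD). Between neighbours, only S3 and oligodendrocyte precursor-like cells had ranges that did not overlap.

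Fgfr3 in mature oligodendrocyte-like cells stood at 15.6, 20.7 and 0 CPM in experiments 1, 3 and 5, from 3 counts in all. Oligodendrocyte precursor-like cells had 33.2, 85.6, 196 and 165 CPM in experiments 1, 2, 3 and 5, and every one of these was above the mature values. Neuroblast-like cells had 59.9, 5.01, 53.6, 28 and 0 CPM in experiments 1 to 5. Cluster S3 had 962, 294, 483 and 655 CPM in experiments 1, 2, 3 and 5. In astrocyte-like cells the values were 1341, 648, 825, 1172 and 1512 CPM in experiments 1 to 5. Experiment 2 was the lowest in both S3 and astrocyte-like cells, and S3 lay below astrocyte-like cells in each shared experiment. The means were 12.1 ± 10.8 CPM in mature oligodendrocyte-like cells, 29.3 ± 27.3 in neuroblast-like cells, 119.8 ± 74.1 in oligodendrocyte precursor-like cells, 598 ± 283 in S3 and 1099.5 ± 358 in astrocyte-like cells (SD). As for Fgfr2, the only neighbours whose ranges did not overlap were S3 and oligodendrocyte precursor-like cells.

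**Figure D1:**
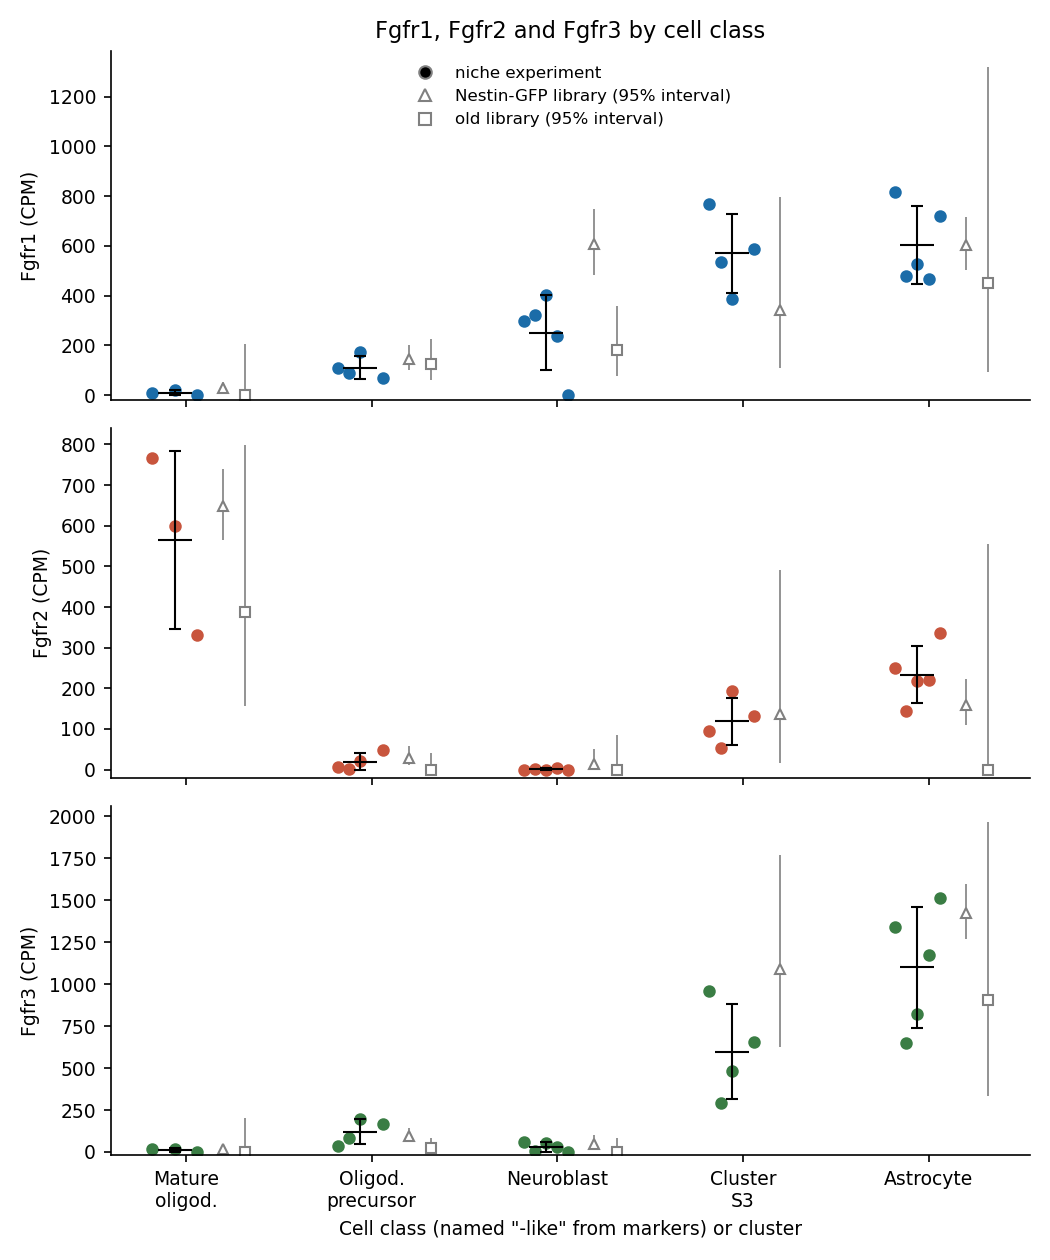
Levels of Fgfr1, Fgfr2 and Fgfr3 (y axes, CPM) by cell class or cluster (x axis). Filled points are niche experiments with the mean and SD in black, cut at 0; open triangles and squares are the Nestin-GFP and the old library with 95% Poisson intervals. In niche experiments, mature oligodendrocyte-like cells reach 766 CPM of Fgfr2 and at most 20.7 CPM of the other receptors, and astrocyte-like cells reach 1512 CPM of Fgfr3.

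Comparisons between classes were tested with edgeR's quasi-likelihood test on the summed counts of 3295 genes, with the experiment as a block and Benjamini-Hochberg adjustment over all genes. Oligodendrocyte precursor-like cells, a glial lineage that keeps dividing in the adult brain, were first compared with astrocyte-like cells, the main supporting glia. All 3 receptors were lower in oligodendrocyte precursor-like cells, in 4 of 4 shared experiments each and with no overlap of the ranges. The log2 fold changes by edgeR were −2.79 ± 0.33 for Fgfr1 (SE; adjusted p = 6.63e-16), −4.68 ± 0.55 for Fgfr2 (adjusted p = 4.42e-16) and −3.58 ± 0.33 for Fgfr3 (adjusted p = 2.44e-25). In this comparison 32.3% of all genes passed, 15.2% higher and 17.1% lower, around a median log2 change of 0.10. The mean of oligodendrocyte precursor-like cells was 18.4% of the astrocyte-like mean for Fgfr1, 8.33% for Fgfr2 and 10.9% for Fgfr3. The summed level of 15 astrocyte markers, all of them above 0, was 8.74% of the astrocyte-like level, 3428 ± 1287 CPM with a range of 2385 to 5307 against 39232 ± 5824 CPM with a range of 32104 to 48076. Most precursor-like cells, 284 of 356, held UMIs of at least 3 markers of another lineage. Without those cells, precursor-like cells averaged 55.2 ± 110.4 CPM of Fgfr2 and 41.2 ± 72 CPM of Fgfr3 (SD). Both SDs were larger than their means, so these levels are poorly determined. Both receptors were still lower than in astrocyte-like cells (edgeR log2 fold changes −4.31 and −5.20, adjusted p = 8.37e-05 and 9.75e-14).

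Mature oligodendrocyte-like cells, which make myelin, were then compared with oligodendrocyte precursor-like cells, from which they arise. Here the receptors moved apart, with Fgfr2 far higher and Fgfr1 and Fgfr3 lower in the mature cells. Fgfr2 was higher in 3 of 3 shared experiments, and edgeR gave it a log2 change of 5.80 ± 0.55 (SE; adjusted p = 3.06e-24). Its pooled counts were 131 of 188471 in mature cells and 6 of 775457 in precursor-like cells, a ratio of 89.8 (95% interval 40.2 to 249). Of the precursor-like total, 385732 came from experiment 2, which had no sum of mature cells, so this ratio is not paired. In experiments 1, 3 and 5 mature cells had 766, 599 and 331 CPM, against 6.64, 21.8 and 47.1 CPM in precursor-like cells. The size of the difference thus varied widely between experiments. For Fgfr1, 2 counts in mature cells stood against 78 in precursor-like cells, a ratio of 0.105 (0.0126 to 0.394) with an edgeR adjusted p of 0.00132. For Fgfr3 the counts were 3 against 59, a ratio of 0.209 (0.0419 to 0.642) with an edgeR adjusted p of 0.00655. Both were lower in 3 of 3 experiments. Among all genes 34.2% passed, 13.8% higher and 20.3% lower. The lower Fgfr3 level was no longer called by edgeR when cells with markers of another lineage were left out (log2 fold change −0.58, adjusted p = 0.79), when clusters were cut more finely (−0.37, adjusted p = 0.648) or without experiment 3 (−2.35, adjusted p = 0.0705). The lower Fgfr1 level lost its call without experiment 1 (−2.62, edgeR adjusted p = 0.097).

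Set against astrocyte-like cells, mature oligodendrocyte-like cells had less Fgfr1 and Fgfr3 and more Fgfr2. The pooled ratio was 0.0175 (95% interval 0.00211 to 0.0641) for Fgfr1 and 0.0148 (0.00303 to 0.0435) for Fgfr3, each lower in 3 of 3 experiments, with edgeR adjusted p of 1.91e-17 and 9.87e-24. The mean of mature cells was 1.57% of the astrocyte-like mean for Fgfr1 and 1.1% for Fgfr3. For the summed astrocyte markers it was 1.59%, or 624 ± 198 CPM (SD, range 434 to 828), with 11 of 15 markers above 0, and the part of such transcripts in the low receptor counts was not tested. Fgfr2 was higher by 1.13 ± 0.39 on the log2 scale (SE, edgeR adjusted p = 0.0121), in 2 of 3 experiments. In experiment 5 it stood at 331 CPM in 5 mature cells, against 336 CPM in astrocyte-like cells. Of all genes 36.2% passed in this comparison, 15.4% higher and 20.8% lower. The Fgfr2 call was lost without experiment 1, with a log2 fold change of 0.63 (edgeR adjusted p = 0.434), without experiment 3 at 1.04 (0.0832) and by DESeq2 at 1.0 (0.0599).

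Cluster S3 was compared with astrocyte-like cells, its nearest neighbours. Fgfr3 was lower in S3 in 4 of 4 experiments, with an edgeR log2 change of −1.20 ± 0.32 (SE; adjusted p = 0.00637), where 4.98% of all genes passed, 1.37% higher and 3.61% lower. Fgfr2 had a log2 fold change of −1.06 ± 0.50 and lower values in 4 of 4 experiments, but did not pass (edgeR adjusted p = 0.264). Fgfr1 had −0.42 ± 0.32 and did not pass (edgeR adjusted p = 0.623). The call for Fgfr3 held in 13 of 19 alternatives, and DESeq2 (−1.14, adjusted p = 0.214) and a fit with no replicate block (−1.26, edgeR adjusted p = 0.174) did not make it. Several other measures moved with this contrast. S3 cells had a median of 6088 transcripts, against 2559.8 in astrocyte-like cells, and with at least 2000 transcripts per cell the Fgfr3 change was −1.18 (edgeR adjusted p = 0.0151). Summed astrocyte markers stood at 33375 ± 7129 CPM in S3, 85.1% of the astrocyte-like mean, and Fgfr3 stood at 54.4%. The single markers differed among themselves. Gja1 averaged 928 CPM in S3 and 2743 CPM in astrocyte-like cells, Aqp4 613 and 1630.4 CPM, and Slc4a4 376 and 1164 CPM, so these had a smaller part of the astrocyte-like mean than Fgfr3. Slc1a3 averaged 8326 and 6335 CPM, and Mlc1 1806 and 1227 CPM. Fos, Egr1 and Junb, chosen after their values were seen, summed to 3026 ± 2592 CPM in S3 with a range of 655 to 6709.8, against 735 ± 704 CPM in astrocyte-like cells with a range of 79.6 to 1739. The same sum averaged 2694 ± 2542 CPM in oligodendrocyte precursor-like, 2450.2 ± 1004 in neuroblast-like and 1421 ± 1413 CPM in mature oligodendrocyte-like cells (SD). High values were thus not particular to S3. The part of these 3 genes in the Fgfr3 difference was not tested.

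Neuroblast-like cells were compared with S3. Fgfr2 and Fgfr3 were lower in neuroblast-like cells in 4 of 4 shared experiments, whereas the difference of Fgfr1 did not pass. For Fgfr3 edgeR gave a log2 change of −4.33 ± 0.47 (SE; adjusted p = 3.52e-18). For Fgfr2, 3 counts in neuroblast-like cells against 15 in S3 gave a ratio of 0.0295 (95% interval 0.00548 to 0.104) and an edgeR adjusted p of 6.92e-07. Fgfr1 had −0.70 ± 0.34 (SE, edgeR adjusted p = 0.103) and was lower in 3 of 4 experiments. In 4 alternatives Fgfr1 did pass, among them DESeq2 with −0.95 (adjusted p = 0.0244) and a fit of these cells alone with −1.08 (edgeR adjusted p = 0.012). Of all genes 35.3% passed, 15.8% higher and 19.5% lower; by edgeR 44.9% of the calls were higher in neuroblast-like cells, and by DESeq2 32.5%.

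**Figure D2:**
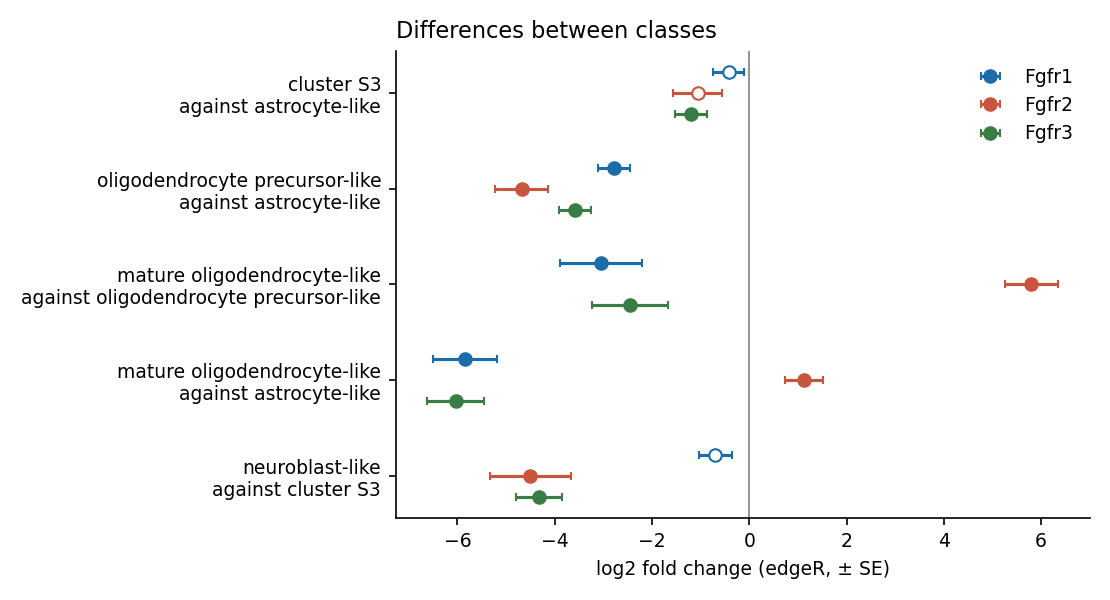
Log2 fold changes of Fgfr1, Fgfr2 and Fgfr3 (x axis, edgeR, with SE) for 5 comparisons (y axis), each the first-named cells over the second. Filled points passed an adjusted p of 0.05 and open points did not; Fgfr2 is the receptor that is higher in mature oligodendrocyte-like cells, by 5.80 against precursor-like and 1.13 against astrocyte-like cells.

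The make-up of the receptor counts is the share that each gene took of the counts of all 3, which needs no scaling to the depth of the cells. It set mature oligodendrocyte-like and neuroblast-like cells apart from the others, but was nearly alike in precursor-like cells and S3. Mature oligodendrocyte-like cells carried 96.9 ± 3.23% Fgfr2 and 1.74 ± 1.63% Fgfr3 (SD, n = 3). In oligodendrocyte precursor-like cells 48.2 ± 19.9% was Fgfr1, 7.03 ± 6.65% Fgfr2 and 44.8 ± 15.6% Fgfr3 (n = 4), and the Fgfr3 share ranged between 22.2% and 58.3%. Neuroblast-like cells carried 89.3 ± 6.03% Fgfr1 (n = 4, since experiment 5 had no receptor count). Cluster S3 held Fgfr1 and Fgfr3 at nearly equal shares, 45.5 ± 10.5% and 44.8 ± 8.19% (n = 4). Astrocyte-like cells carried 56.2 ± 4.87% Fgfr3, 31.7 ± 5.01% Fgfr1 and 12.1 ± 1.41% Fgfr2 (n = 5). The Fgfr3 share of mature oligodendrocyte-like cells differed from that of precursor-like cells by −41.8 ± 19.5 percentage points (SD), with lower values in 3 of 3 experiments (exact sign-flip permutation test over experiments, p = 0.25, the smallest that 3 experiments allow, two-sided). Without cells that held markers of another lineage it was −1.46 points. Against astrocyte-like cells the difference was −9.7 ± 15.9 points in precursor-like cells and −9.71 ± 6.23 points in S3, with lower values in 4 of 4 experiments each (same exact test, p = 0.125 for each, the smallest that 4 experiments allow), and without those cells that of precursor-like cells was −35.7 points. With all cells kept, the difference of precursor-like cells ranged from −33.4 to −0.49 points and was large in experiment 1 only. In experiments 2, 3 and 5 their Fgfr3 share was 48.5, 50 and 58.3%, against 50.9, 52.5 and 58.8% in astrocyte-like cells. No adjustment was made over these 3 tests, none of which could pass 0.05.

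**Figure D3:**
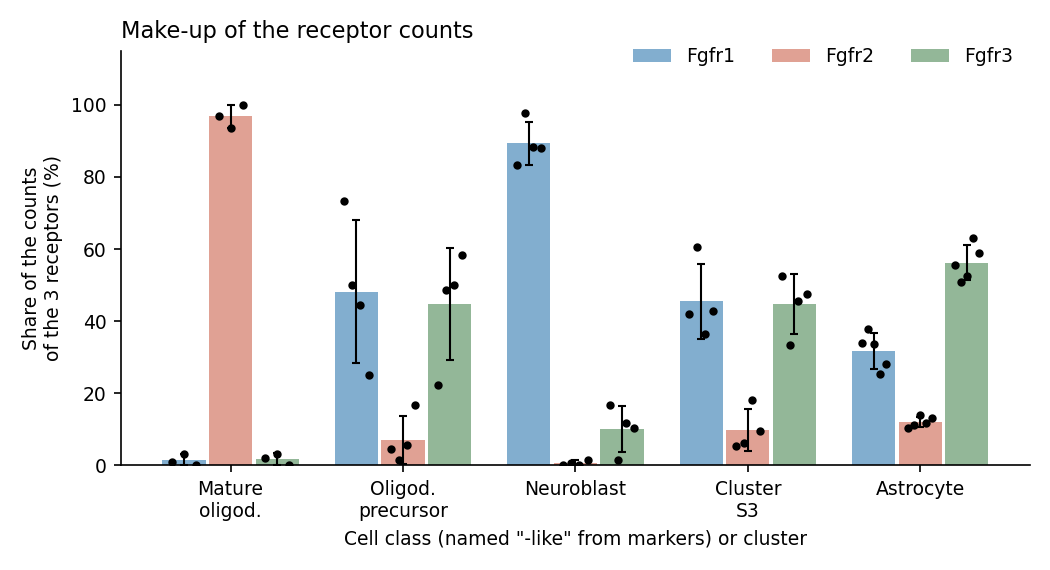
Share of each receptor in the counts of Fgfr1, Fgfr2 and Fgfr3 together (y axis, %) by cell class or cluster (x axis). Bars are means over niche experiments, black points single experiments and error bars the SD, cut at 0; Fgfr2 makes up 96.9% in mature oligodendrocyte-like cells and Fgfr1 89.3% in neuroblast-like cells.

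In single cells Fgfr1 and Fgfr3 were often found together in S3 and astrocyte-like cells, whereas 1 receptor alone was the commoner finding in mature oligodendrocyte-like and neuroblast-like cells. At full depth, 60 of 66 mature oligodendrocyte-like niche cells had a UMI of Fgfr2 (90.9%), and in 54 of the 66 it was the only one of the 3 receptors seen. Among 267 oligodendrocyte precursor-like cells, 144 had no UMI of any receptor. In neuroblast-like cells Fgfr1 was seen alone in 110 of 199 cells. All 3 receptors were seen in 13 of 46 S3 cells and in 55 of 221 astrocyte-like cells, and Fgfr1 with Fgfr3 but without Fgfr2 in 18 and 70 of them.

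Depth differed between classes, with a median of 5094 UMIs in mature oligodendrocyte-like, 5221 in oligodendrocyte precursor-like, 8178 in neuroblast-like, 6197 in S3 and 2050 in astrocyte-like cells. Shares of cells were therefore compared after every cell was thinned to 800 UMIs, which left out no cell. The intervals here take cells as the units and do not cover the spread between experiments. Fgfr2 then remained in 40.9% of mature oligodendrocyte-like cells (95% exact binomial interval 29 to 53.7) and in 0.749% of precursor-like cells (0.0908 to 2.68). Over experiments these shares averaged 35 ± 13.2% and 0.499 ± 0.604% (SD, n = 3 and 4). Fgfr3 was seen in 43.5% of S3 cells (28.9 to 58.9), against 55.7% of astrocyte-like cells (48.8 to 62.3), intervals that overlap. Over experiments the means were 43.5 ± 5.41% and 55.3 ± 12% (SD, n = 4 and 5). Fgfr1 was seen in 24.6% of neuroblast-like cells (18.8 to 31.2), 37% of S3 cells (23.2 to 52.5) and 31.7% of astrocyte-like cells (25.6 to 38.2). Microglia-like cells, the immune cells of the brain, were set beside these shares to show how often a receptor UMI appears in cells of another type. After thinning, 1.37% of them had Fgfr1, 0% Fgfr2 and 0.344% Fgfr3, at a full median of 3046 UMIs. Before thinning these shares were 5.15%, 0.344% and 2.41%. The unthinned Fgfr1 share of mature oligodendrocyte-like cells, 4.55%, was no higher than the microglia-like one and is not read as expression. Their Fgfr3 share, 7.58%, was above the microglia-like one, and after thinning it was 3.03% (0.369 to 10.5), against 0.344% (0.0087 to 1.9) in microglia-like cells, intervals that overlap. For Fgfr1 the 0 of 66 mature cells after thinning allows a share of up to 5.44%.

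The 6 astrocyte-like clusters held between 463 and 895 CPM of Fgfr1, 124 and 291 CPM of Fgfr2 and 1031 and 1490.3 CPM of Fgfr3, pooled over all libraries. The pooled Fgfr3 level was highest in cluster S0 and lowest in S1, but they drew different shares of cells from each experiment. Within experiments 1, 2, 3 and 5, S0 had 1479, 482, 1274 and 2575 CPM of Fgfr3, against 1484, 559, 452 and 1309 CPM in S1. The order of the clusters was not the same in every experiment. The 2 clusters of oligodendrocyte precursor-like cells, L0 and L4, came mostly from different experiments. Pooled, they had 116 and 113 CPM of Fgfr1 and 79.5 and 78.2 CPM of Fgfr3, but Fgfr3 varied within L0. It stood at 33.3 CPM (16 to 61.3) in experiment 1, 198 (90.6 to 376) in experiment 3 and 165 (66.2 to 339) in experiment 5. In experiment 2 L0 had 78.6 CPM from 1 count and L4 85.7 CPM (58.6 to 121). The like pooled values thus do not show a level that is stable between experiments. Among neuroblast-like clusters Fgfr1 differed more. The cluster led by Neurod1, Calb2 and Stmn2, genes of later neuroblasts and immature neurons, had 481 CPM (415 to 554). The cluster in which Eomes, a factor of intermediate progenitors, and Ccnd2 were among the leading genes had 156 CPM (109 to 216). Within experiment 2, which held both, the values were 452 CPM (369.7 to 547) in 57 cells and 137 CPM (87.1 to 206) in 36 cells. No other niche experiment had 5 cells in both clusters, so this difference has no replicate check. The remaining neuroblast-like cluster, L7, had 267 CPM (224 to 315), with 18 of its 77 cells from experiment 3 and 58 from experiment 4. Committed oligodendrocyte precursor-like cells, 19 in number and led by Bmp4, Gpr17 and Enpp6, are the stage between the precursors and the mature cells. They held 0 counts of Fgfr1, 1 of Fgfr2 and 7 of Fgfr3, or 0 CPM (up to 45.6), 12.4 CPM (0.313 to 68.9) and 86.8 CPM (35 to 179). These counts are of the second set of UMIs; with all UMIs, Fgfr1 was seen in 3 of 16 niche cells of this class (18.8%), Fgfr2 in 1 and Fgfr3 in 3. Their Fgfr2 was thus at the level of the precursor-like clusters and not of the mature one, which had 659.5 CPM (594 to 730). Proliferating progenitor-like cells, 34 in number and led by Top2a and Mki67, held 116 CPM of Fgfr1, 11.6 CPM of Fgfr2 and 58.2 CPM of Fgfr3.

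**Figure D4:**
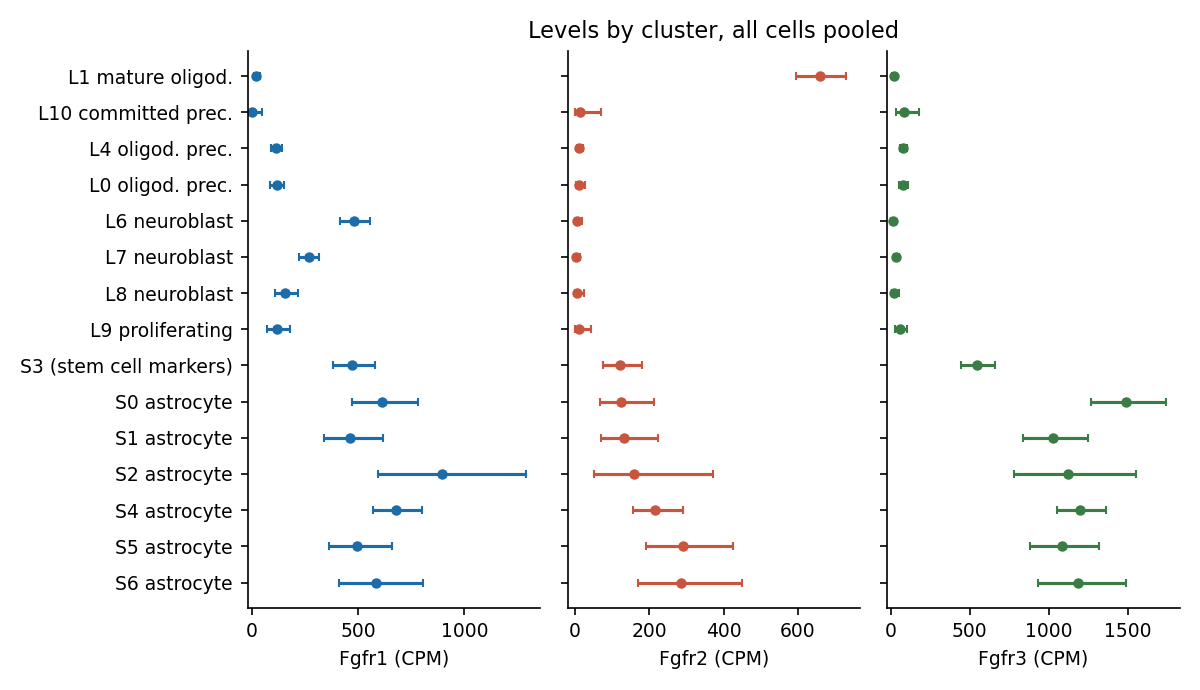
Levels of Fgfr1, Fgfr2 and Fgfr3 (x axes, CPM) in the clusters of the neural and glial lineages (y axis), with all cells of all libraries pooled and 95% Poisson intervals. Fgfr2 is at 659.5 CPM in the mature oligodendrocyte-like cluster and at 12.4 CPM in the committed precursor-like cluster; neuroblast-like cluster L6 has more Fgfr1 (481 CPM) than L8 (156 CPM).

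The Nestin-GFP and the old library are 1 library each, so they allow no test. In Nestin-GFP mature oligodendrocyte-like cells Fgfr2 stood at 648 CPM (565 to 739), with 29.4 CPM of Fgfr1 and 20.6 CPM of Fgfr3, so the same receptor led as in the niche libraries. Oligodendrocyte precursor-like cells of that library had 146 CPM of Fgfr1, 28.3 CPM of Fgfr2 and 97 CPM of Fgfr3. Its astrocyte-like cells had 603 CPM of Fgfr1, 159 CPM of Fgfr2 and 1427 CPM of Fgfr3 (1269 to 1599.7). The 5 S3 cells had 341 CPM of Fgfr1 (111 to 795), 136 CPM of Fgfr2 and 1090.1 CPM of Fgfr3 (623 to 1770.2). That Fgfr3 value was above the niche S3 range of 294 to 962 CPM, which its interval overlaps. Fgfr3 took 69.6% of the receptor counts in these S3 cells (47.1 to 86.8) and 65.2% in the astrocyte-like cells (60.6 to 69.6). The share was thus not lower in S3 of this library, but it rests on 23 receptor counts, and its interval reaches well below the astrocyte-like one. These counts therefore cannot tell whether the library differs from the niche experiments. By level, Fgfr3 was lower in S3 here than in astrocyte-like cells, with intervals that overlap. In its neuroblast-like cells Fgfr1 reached 606 CPM (484 to 749), above the niche range of 0 to 402 CPM. Of these 41 cells, 37 were in the Neurod1-led cluster, which had 643 CPM (511 to 799.7) there and 452 CPM (369.7 to 547) in niche experiment 2. Those intervals overlap. The old library had few cells of these classes. Its 5 mature oligodendrocyte-like cells gave 7 Fgfr2 counts, 388 CPM (156 to 799.7), and 0 counts of the others. In its 21 oligodendrocyte precursor-like cells Fgfr1 stood at 125 CPM (62.6 to 225) and Fgfr3 at 22.8 CPM (2.76 to 82.4). The 7 old astrocyte-like cells gave 3, 0 and 6 counts of Fgfr1, Fgfr2 and Fgfr3. In these 3 glial classes the interval of every receptor overlapped the niche range. The 11 old neuroblast-like cells gave 8 Fgfr1 counts, 182 CPM (78.7 to 359). The 9 of them in the Neurod1-led cluster had 146 CPM (47.3 to 340), below the 452 CPM of that cluster in niche experiment 2, and these intervals do not overlap. With 1 old library and 1 niche experiment for this cluster, the difference has no replicate check.

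Genes around the receptors were read from 6 lists of 78 FGF-related genes, of which 69 were in the tables. The other receptor genes were Fgfr4, at 0 counts in all 5 classes, and Fgfrl1, which encodes a receptor without a kinase domain. Fgfrl1 was lower in mature oligodendrocyte-like cells than in precursor-like cells, at 25.9 ± 32.2 CPM against 143 ± 42 CPM (SD, n = 3 and 4; edgeR log2 fold change −2.14, adjusted p = 0.00732). It was also lower in neuroblast-like cells than in S3 (edgeR log2 fold change −3.39, adjusted p = 4.86e-05). Of 22 ligand genes listed, 15 were in the tables, and Fgf2 was not among them. None of the 15 passed the filters for testing, which ask for a row in all 5 experiments and for enough counts. Of these 15, Fgf1, which lacks a secretion signal, had the highest mean in mature oligodendrocyte-like, S3 and astrocyte-like cells. It averaged 141 ± 22 CPM in mature oligodendrocyte-like, 7.39 ± 8.66 in oligodendrocyte precursor-like, 48.5 ± 34.9 in S3 and 78.5 ± 48.6 CPM in astrocyte-like cells (SD). It had 0 counts in neuroblast-like cells. There and in precursor-like cells Fgf12, an FGF-related protein that stays inside the cell, had the highest mean, 20.4 ± 23.3 and 50.4 ± 32.7 CPM (SD). Of 6 co-receptors and binding partners in the tables, 3 were tested. Flrt1, a membrane protein that binds FGF receptors, was higher in precursor-like than in astrocyte-like cells, at 87.2 ± 46.3 against 25.9 ± 24.5 CPM (SD, n = 4 and 5; edgeR adjusted p = 0.008). Cdh2, N-cadherin, was lower there at 137 ± 39.9 against 262 ± 52.2 CPM (edgeR adjusted p = 0.0146).

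Heparan sulfate proteoglycans and the enzymes that shape them present FGF to its receptors, and 5 of 18 were tested. In oligodendrocyte precursor-like against astrocyte-like cells 2 were higher and 2 lower, beside 15.2% of all genes higher and 17.1% lower, with a median log2 change of −0.37. Sulf2, a sulfatase that trims heparan sulfate, stood at 1693 ± 333 against 59.9 ± 42.2 CPM (SD; edgeR log2 fold change 4.55, adjusted p = 1.18e-33), and the syndecan Sdc3 at 910 ± 267 against 114 ± 48.8 CPM (2.81, 4.13e-16). The syndecan Sdc4 gave 1 count in precursor-like cells, against 71 in astrocyte-like cells (edgeR adjusted p = 3.79e-15). In mature oligodendrocyte-like against precursor-like cells 0 were higher and 4 lower, Sdc3, Sulf2, Gpc5 and Sdc2, beside 13.8% of all genes higher and 20.3% lower. Sulf2 stood there at 261 ± 61.8 CPM (edgeR log2 fold change −2.29, adjusted p = 5.66e-09). Against astrocyte-like cells 1 was higher in mature cells, Sulf2, and 4 lower, beside 15.4% and 20.8% of all genes. In neuroblast-like cells against S3 0 were higher and 3 lower, Gpc5, Sdc4 and Sdc2, beside 15.8% and 19.5% of all genes. Of 9 tested genes of the adaptors and the Ras-MAPK chain, 3 were higher and 0 lower in mature against precursor-like cells, a share near the 34.2% of all genes that passed in this comparison. Mapk3, the kinase ERK1, stood at 362 ± 153 against 14.6 ± 10.2 CPM there (SD; edgeR log2 fold change 4.14, adjusted p = 3.99e-12), and the phosphatase gene Ptpn11 and the adaptor Gab1 had changes of 1.58 and 1.02.

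FGF signalling is known to induce Sprouty and Spred inhibitors and Etv transcription factors. Of 7 such genes tested, 5 were higher and 0 lower in oligodendrocyte precursor-like than in astrocyte-like cells, where 15.2% of all genes were higher, and the median log2 change was 1.22 against 0.10 for all genes. Spry1, Spry4, Etv4 and Etv5 had their highest mean of the 5 classes in precursor-like cells, but Spry2 averaged 74.9 ± 39.9 CPM there and 139.9 ± 58.6 CPM in astrocyte-like cells (SD, n = 4 and 5). Spry1, a Sprouty inhibitor of receptor tyrosine kinases, had 531, 409.6, 261 and 659 CPM in experiments 1, 2, 3 and 5 in precursor-like cells, against 0, 60, 25.8, 14.7 and 16.8 CPM in experiments 1 to 5 in astrocyte-like cells. The groups did not overlap (edgeR log2 fold change 3.99 ± 0.47, adjusted p = 6.41e-16). Etv1, an ETS factor, had a change of 2.80 ± 0.50 (edgeR adjusted p = 1.84e-07), Spry4 2.78 ± 0.55 (3e-06) and Etv5 0.97 ± 0.38 (0.0345). In mature oligodendrocyte-like against precursor-like cells 1 was higher and 4 lower, with a median of −3.20 against −0.29 for all genes, of which 13.8% were higher and 20.3% lower. Etv5, Spry4 and Etv4 had 0 counts in mature cells and were at least 16.6-, 12.8- and 8.83-fold lower there, taking 3 counts over the group as the floor. Spry1 stood at 25.1 ± 27.6 against 465 ± 169.9 CPM (SD, n = 3 and 4; edgeR adjusted p = 1.02e-07). Etv1 did not follow them, with 549 ± 404 CPM in mature cells, 214 ± 62.8 CPM in precursor-like cells and, in astrocyte-like cells, 26.4 ± 25.4 CPM. It was higher in mature than in astrocyte-like cells (edgeR log2 fold change 4.42, adjusted p = 3.76e-17), where Etv5 and Etv4 were lower. In neuroblast-like cells against S3 0 were higher and 3 lower, Etv4, Spred1 and Etv5, beside 19.5% of all genes lower. No tested gene of the 6 lists passed between S3 and astrocyte-like cells, where 4.98% of all genes passed. With 0 to 9 tested genes per list, few or no calls would arise at that share, so this says little about the lists. The Sprouty, Spred and Etv genes are known to answer to several receptor tyrosine kinases and not to FGF receptors alone.

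**Figure D5:**
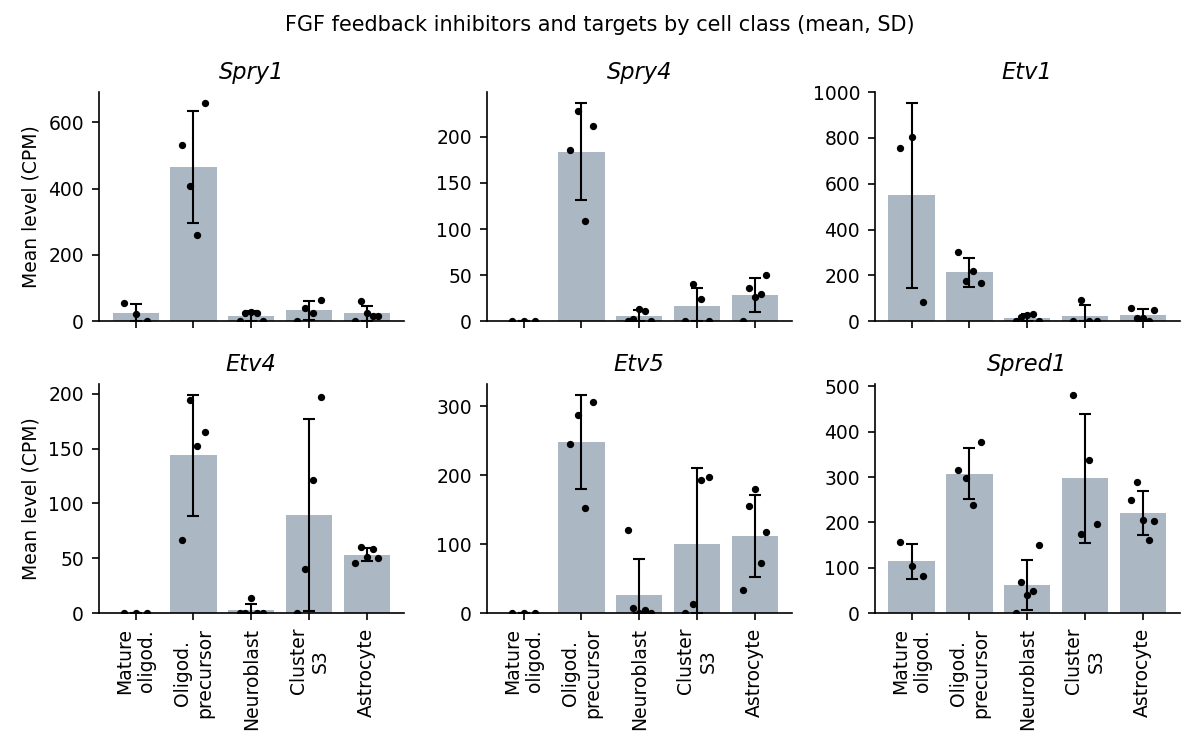
Levels of Spry1, Spry4, Etv1, Etv4, Etv5 and Spred1 (y axes, CPM) by cell class or cluster (x axis). Bars are means over niche experiments, points single experiments and error bars the SD, cut at 0; Spry1 averages 465 CPM in oligodendrocyte precursor-like cells, against 23.4 CPM in astrocyte-like cells, and Etv1 is at 549 CPM in mature oligodendrocyte-like cells.

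The genes most like each receptor were ranked by Pearson correlation of log2(CPM + 10) over 38 sums of a class and experiment, among 4952 genes. The sums share experiments, depth and the classes themselves, so these values describe and carry no p. Nearest to Fgfr1 were Tmem47, Lgi1, Fstl1 and Mt2 (r = 0.88 each) and the glutamate transporter Slc1a3 (0.85). Fgfr2 was nearest to Clmn (0.91), the carbonic anhydrase Car2 (0.87), the orphan receptor Gpr37 (0.87), the glutamate receptor Grm3 (0.86) and Efhd1 (0.85). For Fgfr3 the nearest were the neurotensin receptor Ntsr2 (0.90), Mfge8, Ppap2b and Cldn10 (0.87 each) and the neurotrophin receptor Ntrk2 (0.85). Among the receptors themselves r was 0.70 for Fgfr1 with Fgfr3, 0.53 for Fgfr2 with Fgfr3 and 0.35 for Fgfr1 with Fgfr2.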

How the data were processed

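Single hippocampal cells were sorted into plates of 384 wells and sequenced by SORT-seq, per the labels' protocols. Reads were mapped to mm10 with BWA 0.6.2-r126, per the submitters' processing notes; the sources used here name neither an annotation nor a counter. The authors deposited estimated counts per gene and well: inverting a correction for UMI saturation gave whole UMIs within 0.05 for nearly all values, and the deposited estimated counts of experiment 2 come from libraries that the labels describe as sequenced again. Most deposited tables number their columns without naming them, and their values, listed as other, proved to be the same estimated counts.

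Wells with at least 1000 transcripts and at most 20% haemoglobin were kept; 8 wells failed the haemoglobin limit. Well names were shared between libraries (339 of 463), as the barcodes mark wells. UMIs were divided in 2 sets. Genes listed in all tables, without FGF genes, were clustered on the first (scanpy 1.11.5, Leiden, resolution 1, 3 rounds). No doublet caller was run; cells with 3 or more markers of another lineage were left out as an alternative. The classification was revised 4 times after clusters and markers, and receptor totals per library, had been seen, and the minimum score that singled out cluster S3 was lowered after its score was known. No edgeR test of the receptors had been run by then. The second set's counts were added up by class and experiment, rounded, and tested with edgeR 4.0.16 (TMM normalization, filterByExpr, glmQLFit, 5 classes in 1 fit, experiment as a term) at an adjusted p of 0.05, on genes listed in all 5 experiments; the script was tested on simulated data. Classes of an experiment come from the same sorted libraries, which is why the experiment is a block; DESeq2 1.42.0 was an alternative. The standard error is the log2 fold change over the root of the F statistic. Members, lists and markers were chosen with earlier results of these data known. Named are the receptors, up to 4 list genes with the smallest p per list and comparison, and the 5 genes most like each receptor with a mean of at least 50 CPM; Fos, Egr1 and Junb, the single stem cell and astrocyte markers, Fgf1, Fgf12, Fgfr4, Spry2 and the values of cluster-leading genes were named after their values were seen. Mitochondrial genes were left out.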

Additional observations from a re-analysis of the deposited data

Results flagged for a closer look

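In 16 groups of 4 or 5 experiments, 1 experiment lay apart from the others for Fgfr2 and for Fgfr3, both in microglia-like cells. Fgfr2 stood at 14.6 CPM in experiment 3 and Fgfr3 at 4.29 CPM in experiment 1, and the other 4 experiments were at 0 in each case. Each value is 1 count. Where all other experiments stand at 0, any single count is flagged, so the usual rate of about 1 flag in 20 groups does not apply here.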

How the results depend on the processing

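No result reversed. The lower receptors of oligodendrocyte precursor-like against astrocyte-like cells, the higher Fgfr2 of mature against precursor-like cells, and the lower Fgfr1 and Fgfr3 of mature against astrocyte-like cells were called in all 22 alternatives. Fgfr3 of S3 against astrocyte-like cells lost its call with DESeq2 (−1.14), no replicate block (−1.26), at least 10 cells per sum (−1.37), resolution 0.6 (−1.19) or 1.5 (−1.32) and without mixed cells (−1.73). In mature against precursor-like cells, Fgfr3 lost it at resolution 1.5 (−0.37) and without mixed cells (−0.58). Fgfr2 of mature against astrocyte-like cells lost it with DESeq2 (1.0) and every gene with at least 1 count tested (1.06), and Fgfr2 of neuroblast-like cells against S3 without mixed cells (−4.45). Fgfr1 of neuroblast-like cells against S3 gained a call with DESeq2 (−0.95), these cells alone (−1.08), resolution 0.6 (−0.94) and all counts (−0.78). Leaving out 1 experiment each gave −1.41 to −1.23 for Fgfr3 of S3 against astrocyte-like cells, −3.43 to −2.62 for Fgfr1 and −3.26 to −2.14 for Fgfr3 of mature against precursor-like cells, 0.63 to 1.54 for Fgfr2 of mature against astrocyte-like cells, −0.89 to −0.48 for Fgfr1 and −4.80 to −3.88 for Fgfr2 of neuroblast-like cells against S3.

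Levels that moved by over 1 SD were Fgfr2 (53.5 CPM) and Fgfr3 (294 CPM) in S3 with at least 10 cells per sum, which left 1 experiment, Fgfr3 in the cluster in S3's place when the last clustering round was not centred (267 CPM), Fgfr2 in neuroblast-like cells with 2 other random divisions (4.16 and 3.65 CPM) and all counts (3.44 CPM), Fgfr2 (55.2 CPM) and Fgfr3 (41.2 CPM) in oligodendrocyte precursor-like cells without mixed cells, and Fgfr1 (58.1 CPM) and Fgfr3 (61.7 CPM) in mature cells at resolution 1.5. The cause was not tested.

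Counts of genes called by edgeR moved by over 1.5 times as follows. For S3 against astrocyte-like cells, 164 became 72 with no replicate block, 83 with 10 cells, 71 and 70 at resolutions 0.6 and 1.5, 305 with all counts, 25 without mixed cells, 70 without experiment 2 and 103 not centred. For precursor-like against astrocyte-like cells, 1064 became 1660 with every gene tested, 1828 with all counts, 404 without mixed cells and 613 without experiment 2. The 1126 of mature against precursor-like cells became 553, 1932 and 461 with these cells alone, all counts and no mixed cells, the 1194 against astrocyte-like cells 773, 1998 and 534, and the 1163 of neuroblast-like cells against S3 272, 1949 and 311, with 664 without experiment 2. No cluster took S3's place with a minimum of 500 transcripts, with 1 of the other random divisions or with a stricter score, so its comparisons have no value there. The uncentred round and the stricter score were added after seeing the data. Counts of 3 or fewer limit Fgfr1 and Fgfr3 in mature cells and Fgfr2 in neuroblast-like cells.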

Other observations

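Outside the neural and glial lineages, Fgfr1 was found in fibroblast-like cells, led by Dcn, Col1a2 and Igf2. The 12 such cells of experiment 4 held 29 counts of Fgfr1, 533 CPM (95% Poisson interval 357 to 766), with 2 counts of Fgfr2 and 1 of Fgfr3. All but 1 of the 13 fibroblast-like cells came from that experiment, so the level has no replicate. Endothelial-like cells gave 1 count of each receptor in 22 niche cells. Lymphoid-like cells gave 5 counts of Fgfr1 and 0 of Fgfr2 and Fgfr3 in 51 niche cells. A cluster left unnamed, led by Reln, Vtn and Ndnf, held 9 counts of Fgfr1, 97 CPM (44.4 to 184), 3 of Fgfr2 and 0 of Fgfr3 in 60 cells, 32 of them from experiment 2.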
